A study of Mus musculus with 149 samples.

Results

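Lung gene expression was compared between naive BALB/c mice given 1500 ng and naive BALB/c mice given 150 ng of thymic stromal lymphopoietin (TSLP), 24 h after the challenge. The groups were taken from the labels of the samples: 8 animals at 1500 ng and 6 at 150 ng, together 14 arrays beside 135 others in the series. The 6 naive animals at 500 ng and 24 h gave the dose in between. Naive animals were not sensitized with ovalbumin (OVA), and no genetic change is given for any group. Naive animals given buffer (7 arrays, labelled 0.1% MSA) or saline (8 arrays) and killed at 24 h served as arrays without TSLP. The same comparison of doses was also read in OVA-sensitized animals at 24 h (7 arrays at 1500 ng and 8 at 150 ng) and in naive animals at 6 h (8 arrays at each dose). The labels state 8 animals per condition, and the remaining animals were not analysed here. Each array held RNA of 1 animal, from whole lung, so more cells of a type and more RNA per cell cannot be told apart.

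TSLP is a cytokine made mainly by epithelial cells of the airway, skin and gut. It binds a receptor made of the TSLP receptor chain (Crlf2) and the interleukin-7 receptor alpha chain (Il7r), which signals through JAK kinases and STAT5. In the lung it is known for acting on dendritic cells, which then make the chemokines CCL17 and CCL22, and for promoting type 2 responses through T helper cells, innate lymphoid cells, mast cells and basophils.

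Values are log2 expression levels normalised by the robust multi-array average (RMA), 1 probe set per gene, and a difference of 1 is a doubling. Over all arrays the values ran between 2.955 and 15.11 and the array medians between 8.968 and 9.164. The lung genes were high in all 20 naive TSLP arrays at 24 h (surfactant protein C, Sftpc, between 14.17 and 14.31), and the gullet keratin Krt13 did not exceed 6.057 in them. Heart and fat genes were present in these arrays too (Myl7 between 11.86 and 13.52, Adipoq between 7.659 and 11.14), and neither differed between 1500 and 150 ng (adjusted p = 0.865 and 0.986 in limma). The difference between the 3' and 5' probe sets of beta-actin, a measure of RNA integrity and labelling, was 2.34 and 1.85 in replicates 1 and 4 at 1500 ng, against 1.24 to 1.53 in the 6 arrays at 150 ng. Its mean difference, 0.22 (SE 0.134), did not pass an exact two-sided permutation test (p = 0.176, adjusted p = 0.265 over 3 comparisons).

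At 1500 ng some basophil markers and the clock gene Per1 were among a small number of genes that differed, mostly by modest amounts. The genes that passed under every alternative processing tried and without any single array were Irx1, Plekhg1, Foxp1 and Stbd1. At an adjusted p of 0.05, 71 of 13494 genes differed between 1500 and 150 ng (0.526%), 39 higher (0.289%) and 32 lower (0.237%) at 1500 ng. The median size over the 71 genes was 1.23-fold and the range 1.1 to 2.02-fold. Sizes over 1.5-fold were reached by 7 genes, and 1 gene, Mcpt8, passed 2-fold. In 66 of the 71 genes all 8 arrays at 1500 ng lay on the same side of the 150 ng mean, as they did in 1650 of the 13494. Choosing genes for a difference favours this pattern and the next. The arrays of the 2 doses did not overlap at all in 26 of the 71 genes, as they did in 0.904% of all genes. The number of calls rests on single arrays: it was 16 without replicate 1 at 1500 ng, the array with the highest beta-actin difference, and 168 without replicate 3 at 1500 ng.

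**Figure D1:**
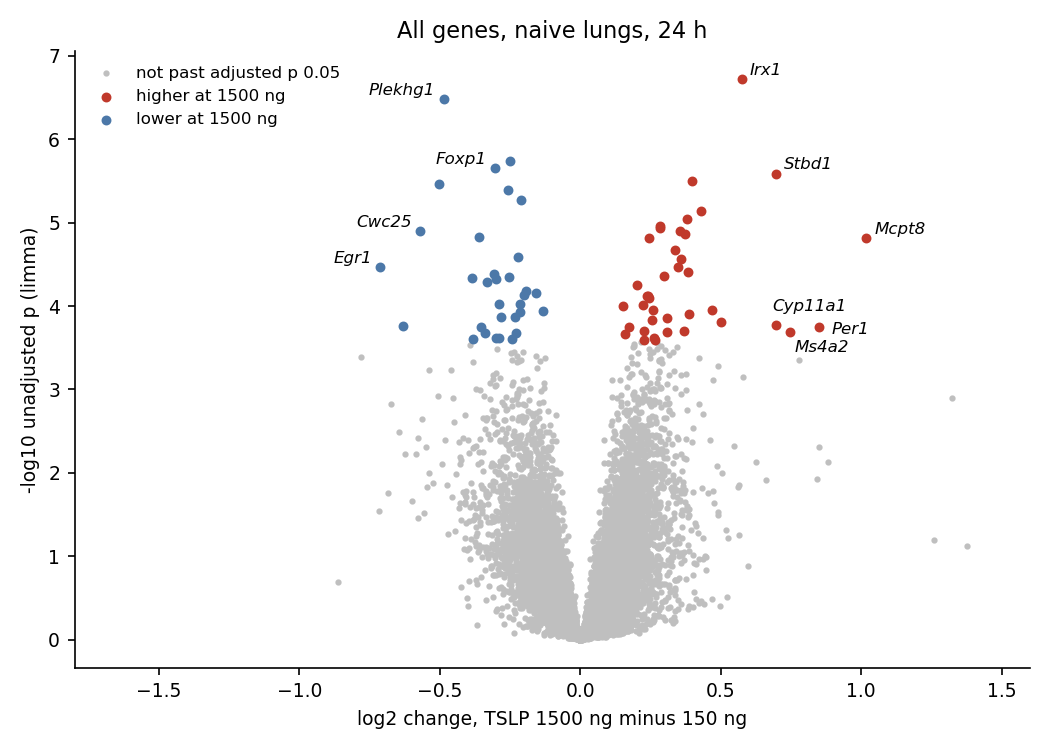
Each point is 1 of 13494 genes, with the log2 change of TSLP 1500 ng minus 150 ng in naive lungs at 24 h on the x axis and the size of the unadjusted limma p as −log10 on the y axis. The 39 genes higher at 1500 ng are red and the 32 lower ones blue, and Mcpt8 has the largest change among them, 1.02 on the log2 scale.

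Genes of basophils were among those that rose at the higher dose. Of the 10 measured basophil markers 3 rose, beside 0.289% of all genes. The median change was 0.36 over the list and 0.02 over all genes. A positive difference was seen in 9 of the 10 markers and in 7713 of the 13494 genes. The 3 genes were Mcpt8, Ms4a2 and Cyp11a1, and none of the markers fell.

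Mcpt8, a serine protease of mouse basophil granules, had its lowest, median and highest array at 8.26, 8.86 and 9.29 at 1500 ng, against 7.15, 7.75 and 8.43 at 150 ng. Only the lowest array at 1500 ng, replicate 3, lay within the range of the 150 ng arrays, whose highest arrays were replicates 4 and 1. The means were 8.83 ± 0.31 at 1500 ng (SD, n = 8) and 7.82 ± 0.45 at 150 ng (SD, n = 6), a change of 1.02 (SE 0.227, adjusted p = 0.0109, higher in 8 of 8 arrays). Against buffer (mean 7.85), Mcpt8 was higher by 0.98 at 1500 ng (adjusted p = 0.00608), while the difference at 150 ng was −0.03 (adjusted p = 0.981). Both comparisons share the buffer arrays. Leaving out replicate 2 at 150 ng moved the adjusted p of the dose comparison to 0.0602.

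Ms4a2, the beta chain of the high-affinity IgE receptor of basophils and mast cells, had 7.15, 7.86 and 8.04 as its lowest, median and highest value at 1500 ng, against 6.47, 6.90 and 7.64 at 150 ng. The ranges overlapped, with replicate 3 lowest at 1500 ng and replicate 4 highest at 150 ng, as for Mcpt8. The change was 0.75 (SE 0.195, adjusted p = 0.0448). Fcer1a, the alpha chain that binds IgE, had 6.43, 6.95 and 7.22 at 1500 ng, against 5.61, 5.98 and 6.70 at 150 ng. Its difference of 0.78 (SE 0.216) did not pass, at an adjusted p of 0.0578, though all 8 arrays lay above the 150 ng mean. Against the shared buffer arrays both chains were higher at 1500 ng, by 0.87 for Ms4a2 (adjusted p = 0.00472) and by 0.997 for Fcer1a (adjusted p = 0.00334).

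Cyp11a1, the mitochondrial enzyme that opens steroid synthesis by cleaving the side chain of cholesterol, had 7.18, 7.65 and 7.99 at 1500 ng, against 6.67, 6.94 and 7.26 at 150 ng. Here too replicate 3 was the lowest array at 1500 ng and the only one within the 150 ng range. The change was 0.70 (SE 0.18, adjusted p = 0.0427). Without replicate 1 at 1500 ng the adjusted p was 0.156 for Cyp11a1 and 0.143 for Ms4a2, while Mcpt8 still passed (adjusted p = 0.0419). Of the 14 fits that each left out 1 array of either dose, Mcpt8 passed in 13, Cyp11a1 in 4 (highest adjusted p = 0.156) and Ms4a2 in 3 (highest adjusted p = 0.16). A second, dimmer probe set of Cyp11a1 differed by 0.004.

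The other basophil markers did not pass. Cd200r3, an activating receptor of basophils and mast cells, differed by 0.57 (adjusted p = 0.215). Hdc, which makes histamine, differed by 0.07 and the transcription factor Gata2 by 0.05. Both are also expressed outside basophils, as is Ms4a2, which passed. Enpp3, a surface enzyme of basophils, differed by −0.12 (adjusted p = 0.767).

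Markers of mast cells were read for the same animals, since Ms4a2 and Fcer1a are shared by both cell types. Of the 9 measured mast cell markers 1, Ms4a2, rose, beside 0.289% of all genes. The proteases Mcpt1, Mcpt2, Mcpt4 and Tpsb2 differed by 0.01, 0.41, −0.11 and 0.04, and the stem cell factor receptor Kit by −0.23 (adjusted p = 0.649 for Mcpt2 and 0.378 for Kit), and none of these passed. Averaged over the 5 mast cell markers that are not in the basophil list, the lowest, median and highest arrays were at 6.82, 6.94 and 7.51 at 1500 ng, against 6.68, 6.99 and 7.38 at 150 ng, and 1 array at 1500 ng exceeded all arrays at 150 ng. Averaged over the 10 basophil markers the arrays were at 8.36, 8.73 and 8.86 at 1500 ng, against 8.00, 8.26 and 8.53 at 150 ng, and 7 of the 8 arrays at 1500 ng exceeded all arrays at 150 ng. The basophil average keeps Ms4a2, Fcer1a, Hdc and Cpa3, which are in the mast cell list too, and the markers that passed. The averages of the lists are therefore not like for like, and no verdict on the cell type is read from them.

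**Figure D2:**
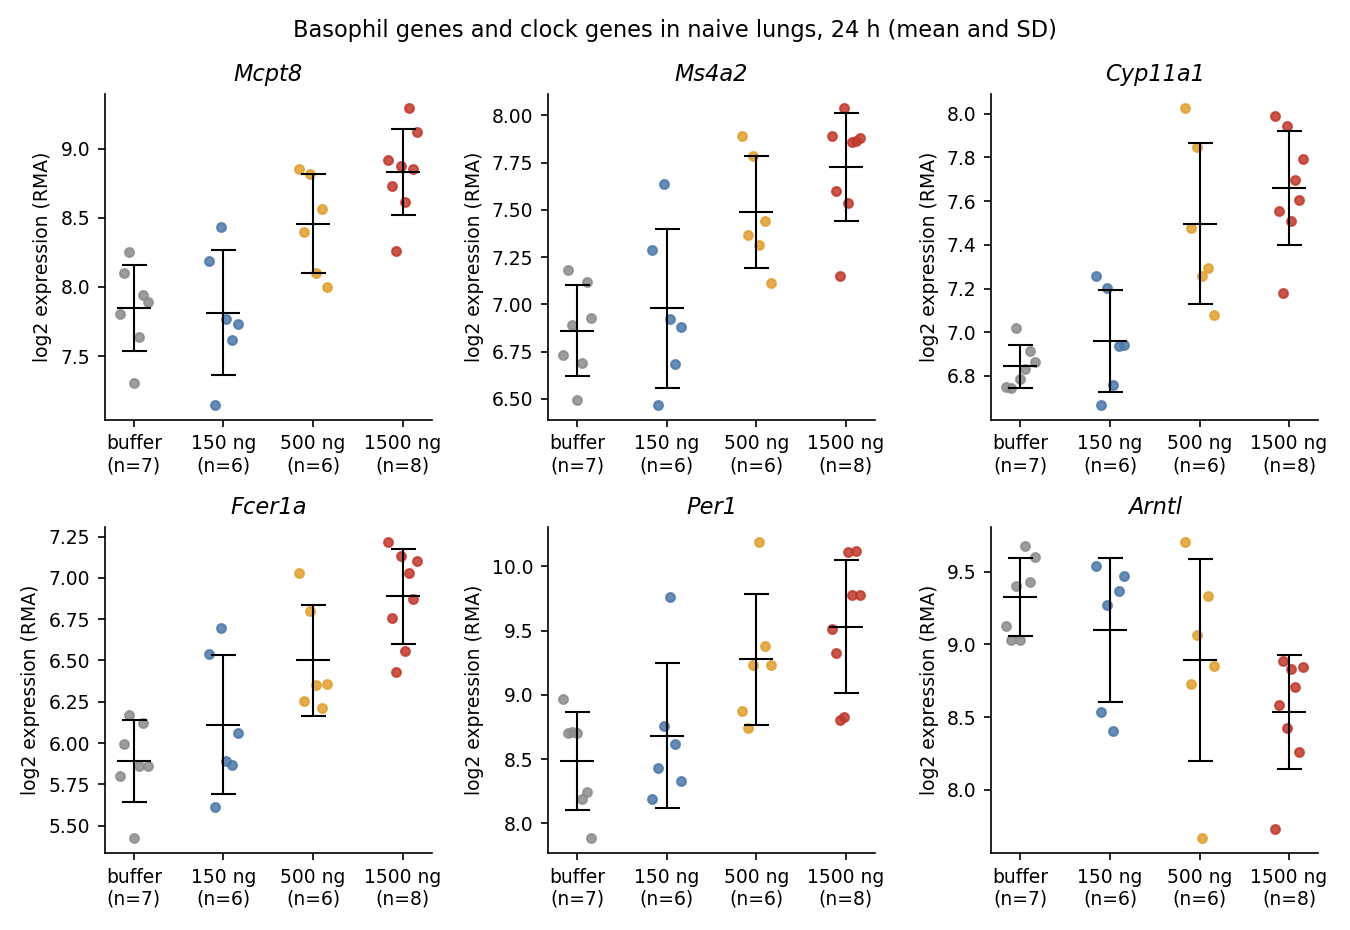
Each panel gives the log2 expression of 1 gene in every naive lung at 24 h, with buffer and the TSLP doses in rising order on the x axis, each array as a point and the mean with its SD as black bars. Mcpt8, Ms4a2, Cyp11a1, Fcer1a and Per1 are highest on average at 1500 ng and Arntl is lowest there, with arrays of different doses overlapping in each panel.

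The promoter windows of Mcpt8 and Ms4a2 are shown because both genes rose, and that of Per1 because clock factors are known to bind the E-box letters. Windows are from RefSeq on GRCm38.p6, from 250 bases before to 50 bases after a listed start, and 61 of the 71 genes had at least 1. Capitals mark the E-box letters CACGTG, the GATA letters AGATAA and the STAT letters TTCNNNGAA, searched on both strands, and none of these matches overlapped another. Mcpt8 lies at chr14:56085148-56085447 on the minus strand, Ms4a2 at chr19:11623670-11623969 on the minus strand, and the first of the 2 windows listed for Per1 at chr11:69098699-69098998 on the plus strand.
Mcpt8: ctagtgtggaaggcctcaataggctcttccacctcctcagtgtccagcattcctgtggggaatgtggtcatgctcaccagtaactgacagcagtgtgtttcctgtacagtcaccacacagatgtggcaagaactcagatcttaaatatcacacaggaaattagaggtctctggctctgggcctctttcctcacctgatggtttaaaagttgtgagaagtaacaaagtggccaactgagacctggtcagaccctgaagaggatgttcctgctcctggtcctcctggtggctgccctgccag
Ms4a2: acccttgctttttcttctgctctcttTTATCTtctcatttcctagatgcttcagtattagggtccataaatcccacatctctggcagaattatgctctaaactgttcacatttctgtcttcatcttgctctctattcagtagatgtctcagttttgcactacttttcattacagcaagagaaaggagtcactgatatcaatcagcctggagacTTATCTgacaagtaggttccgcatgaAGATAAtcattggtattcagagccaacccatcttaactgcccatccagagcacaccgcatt
Per1: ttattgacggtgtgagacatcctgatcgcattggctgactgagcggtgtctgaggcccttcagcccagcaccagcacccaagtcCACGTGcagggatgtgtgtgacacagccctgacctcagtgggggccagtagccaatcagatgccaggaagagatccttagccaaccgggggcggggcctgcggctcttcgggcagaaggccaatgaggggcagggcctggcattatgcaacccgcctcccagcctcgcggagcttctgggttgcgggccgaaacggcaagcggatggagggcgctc
The Mcpt8 window held none of the 3 sets of letters, the Ms4a2 window held the GATA letters 3 times, and the Per1 window held the E-box letters 1 time. The second window listed for Per1, not shown, held the STAT letters 1 time and no E-box letters. The 2 windows listed for Cyp11a1, which also rose, are not shown and held none of the 3 sets of letters. Of the 61 genes with a window, 7 held the E-box letters, 2 the GATA letters and 7 the STAT letters (11.5%, 3.28% and 11.5%). Among all 27025 genes with a window the shares were 8.09%, 12.7% and 9.55%, and over the 32851 single windows 7.15%, 11.2% and 8.3%. A match is a run of letters, not a measured binding site.

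The clock gene Per1 rose at 1500 ng, and the other clock genes did not pass between the doses. Per1, a repressor of the circadian clock that glucocorticoids also induce, had 8.80, 9.64 and 10.12 as its lowest, median and highest value at 1500 ng, against 8.19, 8.53 and 9.76 at 150 ng. The ranges overlapped because of 1 array at 150 ng, replicate 5, at 9.76, while the next one was at 8.76. The change was 0.85 (SE 0.22, adjusted p = 0.0427, higher in 8 of 8 arrays), and Per1 was higher than in buffer by 1.05 at 1500 ng (adjusted p = 0.00275) and by 0.20 at 150 ng (adjusted p = 0.823). With 1 array left out, Per1 passed in 3 of 14 fits (highest adjusted p = 0.165).

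Of the 11 measured output and repressor genes of the clock 1 rose and none fell, with 9 differences above 0 and a median of 0.20. Over all genes 0.289% rose, 7713 of 13494 differences were above 0 and the median was 0.02. Against the shared buffer arrays 6 of the 11 passed at 1500 ng (all higher) and none at 150 ng, beside 0.978% and 0.215% of all genes. Per2, the partner of Per1, differed by 0.56 (adjusted p = 0.217), and Hlf and Usp2, which are driven by the clock, by 0.29 and 0.28 (adjusted p = 0.259 and 0.264). None of the 6 measured genes of the activating arm passed between the doses, and their median was −0.12. Against buffer 2 of these 6 passed at 1500 ng, both lower, and none at 150 ng. Arntl, the clock activator BMAL1, had 7.73, 8.65 and 8.89 at 1500 ng, against 8.41, 9.32 and 9.54 at 150 ng, a difference of −0.57 (adjusted p = 0.112). Npas2, which can stand in for the activator CLOCK, differed by −0.63 (adjusted p = 0.153).

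A clock score, the mean standardized level of the output genes minus that of the activating genes, averaged 0.24 at 1500 ng (range −0.28 to 1.2), against −0.56 at 150 ng (range −1.55 to 0.50). It averaged −0.55 at 500 ng, −1.34 in buffer and −1.39 in saline. The labels give the hours after challenge but no time of day, so a difference in the hour of killing and one of dose cannot be told apart. With the score as a covariate 35 genes passed (33 of the 71), and Per1, itself part of the score, had an adjusted p of 0.172. With beta-actin as a covariate 42 genes passed (35 of the 71), and Per1, Cyp11a1 and Ms4a2 had adjusted p-values of 0.0545, 0.0605 and 0.0882.

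Among immediate early genes, Egr1 fell at 1500 ng. Of the 14 measured, 1 fell and none rose, with a median of −0.19 and 2 differences above 0. Over all genes 0.237% fell, 0.289% rose and 7713 of 13494 differences were above 0. Egr1, a zinc-finger transcription factor induced within minutes of a stimulus, had the largest fall among the genes that passed. It had 11.39, 11.67 and 12.75 at 1500 ng, against 12, 12.34 and 13.09 at 150 ng. Replicate 8 at 1500 ng lay inside the range at 150 ng, and the other 7 arrays lay below all arrays at 150 ng. The change was −0.71 (SE 0.166, adjusted p = 0.0194), and it passed in 10 of 14 fits with 1 array left out (highest adjusted p = 0.141). Fos, Fosb and Egr3, of the same early response, differed by −0.78, −0.51 and −0.65, and none passed (adjusted p = 0.0578, 0.0896 and 0.13).

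The Egr1 mean at 150 ng lay farther from buffer than that at 1500 ng. Egr1 averaged 11.79 ± 0.42 at 1500 ng (SD, n = 8) and 12.50 ± 0.45 at 150 ng (SD, n = 6), beside 11.85 ± 0.18 in buffer (SD, n = 7) and a mean of 12.26 in saline. Against buffer it differed by −0.07 at 1500 ng (adjusted p = 0.87) and by 0.64 at 150 ng (adjusted p = 0.0703). The hour of death and the handling of the tissue, which are known to affect these genes, are not given in the labels, and their part was not tested.

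The genes with the smallest p were Irx1 and Plekhg1. Irx1, an Iroquois homeobox transcription factor of lung development, had 9.60, 9.83 and 10.41 at 1500 ng, against 9.13, 9.35 and 9.44 at 150 ng. All arrays at 1500 ng lay above all arrays at 150 ng. The change was 0.57 (SE 0.104, adjusted p = 0.00223). The buffer mean of 9.67 lay between, so that Irx1 differed from buffer by 0.22 at 1500 ng (adjusted p = 0.276) and by −0.35 at 150 ng (adjusted p = 0.133).

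Plekhg1 had 10.33, 10.80 and 10.96 at 1500 ng, against 11.03, 11.22 and 11.45 at 150 ng, again with no overlap. The change was −0.49 (SE 0.0904, adjusted p = 0.00223). Here the higher dose was the one that differed from buffer, by −0.43 (adjusted p = 0.00281), and the lower dose was close to it (0.06, adjusted p = 0.883).

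Several other genes rose at 1500 ng. Stbd1, which anchors glycogen to membranes, had 9.68, 10.18 and 10.46 at 1500 ng, against 9.12, 9.38 and 9.82 at 150 ng, a change of 0.70 (SE 0.141, adjusted p = 0.00669). A single array at each dose, replicate 8 at 1500 ng and replicate 2 at 150 ng, made its ranges overlap. Klf2, a Krüppel-like factor that keeps endothelial cells and T cells quiescent, had 10.22, 10.50 and 11.27 at 1500 ng, against 9.78, 9.99 and 10.47 at 150 ng. Its change of 0.50 (adjusted p = 0.0403) went with a level at 150 ng below that of buffer (−0.58, adjusted p = 0.0217), while the difference from buffer at 1500 ng was −0.08 (adjusted p = 0.798). Pprc1, a coactivator of mitochondrial gene expression, changed by 0.40 (adjusted p = 0.00669) and was likewise below buffer at 150 ng, by −0.38 (adjusted p = 0.0175).

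Elp4, a subunit of the Elongator complex that modifies transfer RNA, changed by 0.43 (adjusted p = 0.00967), and its arrays did not overlap. Etfbkmt, a methyltransferase of the electron transfer flavoprotein, changed by 0.38 (adjusted p = 0.0109) and Dtnbp1, the dysbindin of organelle biogenesis, by 0.39 (adjusted p = 0.0352). A dimmer probe set of Etfbkmt differed by 0.09. Tmem273, a membrane protein of little known function, changed by 0.47 (adjusted p = 0.0342).

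Other genes fell at 1500 ng. Etv6, an ETS-family repressor needed in blood stem cells, had 10, 10.37 and 10.60 at 1500 ng, against 10.43, 10.91 and 11.05 at 150 ng, a change of −0.50 (SE 0.104, adjusted p = 0.00669). Replicate 2 at 150 ng lay within the range at 1500 ng, and all arrays at 1500 ng were below the 150 ng mean. Dimmer second probe sets of Etv6 and Plekhg1 differed by −0.18 and −0.17 and did not pass. Hbp1, an HMG-box repressor of the cell cycle, changed by −0.36 (adjusted p = 0.0109). Foxp1, a forkhead factor of lung epithelium and lymphocytes, named after its values were seen, had 12.59, 12.74 and 12.86 at 1500 ng, against 12.95, 13.05 and 13.15 at 150 ng, with no overlap and a change of −0.30 (SE 0.0614, adjusted p = 0.00669).

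Cwc25, a splicing factor, had 7.36, 7.78 and 8.10 at 1500 ng, against 8.21, 8.36 and 8.44 at 150 ng, with no overlap. Its change was −0.57 (SE 0.126, adjusted p = 0.0109). Nsun3, which methylates a mitochondrial transfer RNA, had 6.13, 7.01 and 7.48 at 1500 ng, against 7.32, 7.72 and 7.81 at 150 ng, a change of −0.63 (adjusted p = 0.0427). Slbp, which binds the stem-loop of histone messages, and Gas5, a long non-coding RNA that hosts small nucleolar RNAs, changed by −0.34 and −0.35 (adjusted p = 0.0448 and 0.0427). Vav3 changed by −0.38 (adjusted p = 0.0487), the polarity scaffold Dlg5 by −0.39 (adjusted p = 0.0212), the excision repair factor Xpa by −0.33 (adjusted p = 0.0222) and the microtubule-associated Nav1 by −0.31 (adjusted p = 0.0212). Dimmer probe sets of Cwc25 and Dlg5 differed by 0.04 and −0.01, and those of Xpa by −0.04 and −0.07. The dimmer probe sets of Vav3 and Gas5 differed by −0.52 and −0.27, and those of Nav1 by 0.05 and −0.36.

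Beside the 12 largest rises and 12 largest falls with established gene names, the 71 genes held 47 others, 27 of them rises between 0.15 and 0.38 and 20 falls between −0.13 and −0.30. Foxp1 is counted among these falls, and the predicted gene Gm4793 among the rises (0.38, next to Etfbkmt). The arrays of the 2 doses did not overlap in 5 of these rises and 13 of these falls, Foxp1 included. The further examples were chosen after their values were seen.

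Ahr, the receptor for dioxins and tryptophan products, had 12.07, 12.19 and 12.35 at 1500 ng, against 12.29, 12.52 and 12.67 at 150 ng, a change of −0.29 (adjusted p = 0.0321). Prickle1, of the planar cell polarity pathway, had 12.90, 13.02 and 13.15 at 1500 ng, against 13.23, 13.33 and 13.38 at 150 ng, a change of −0.29 (adjusted p = 0.0487). The Ahr ranges overlapped slightly and the Prickle1 ranges did not. Samd9l, an interferon-inducible gene, changed by −0.25 (adjusted p = 0.00669). Snhg5, like Gas5 a host of small nucleolar RNAs, changed by −0.21 (adjusted p = 0.00796).

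Rapgef3, the cyclic AMP sensor EPAC1, had 11.21, 11.44 and 11.76 at 1500 ng, against 10.85, 11.12 and 11.22 at 150 ng, a change of 0.35 (adjusted p = 0.0194). The potassium channel gene Kcnk6 changed by 0.31 (adjusted p = 0.0374) and Lars2, the mitochondrial leucyl-tRNA synthetase, by 0.26 (adjusted p = 0.0385), both with no overlap. A dimmer probe set of Lars2 differed by 0.05, and those of Rapgef3 by 0.36, 0.31 and 0.28. Uqcc2, an assembly factor of respiratory complex III, changed by 0.28 (adjusted p = 0.0109).

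**Figure D3:**
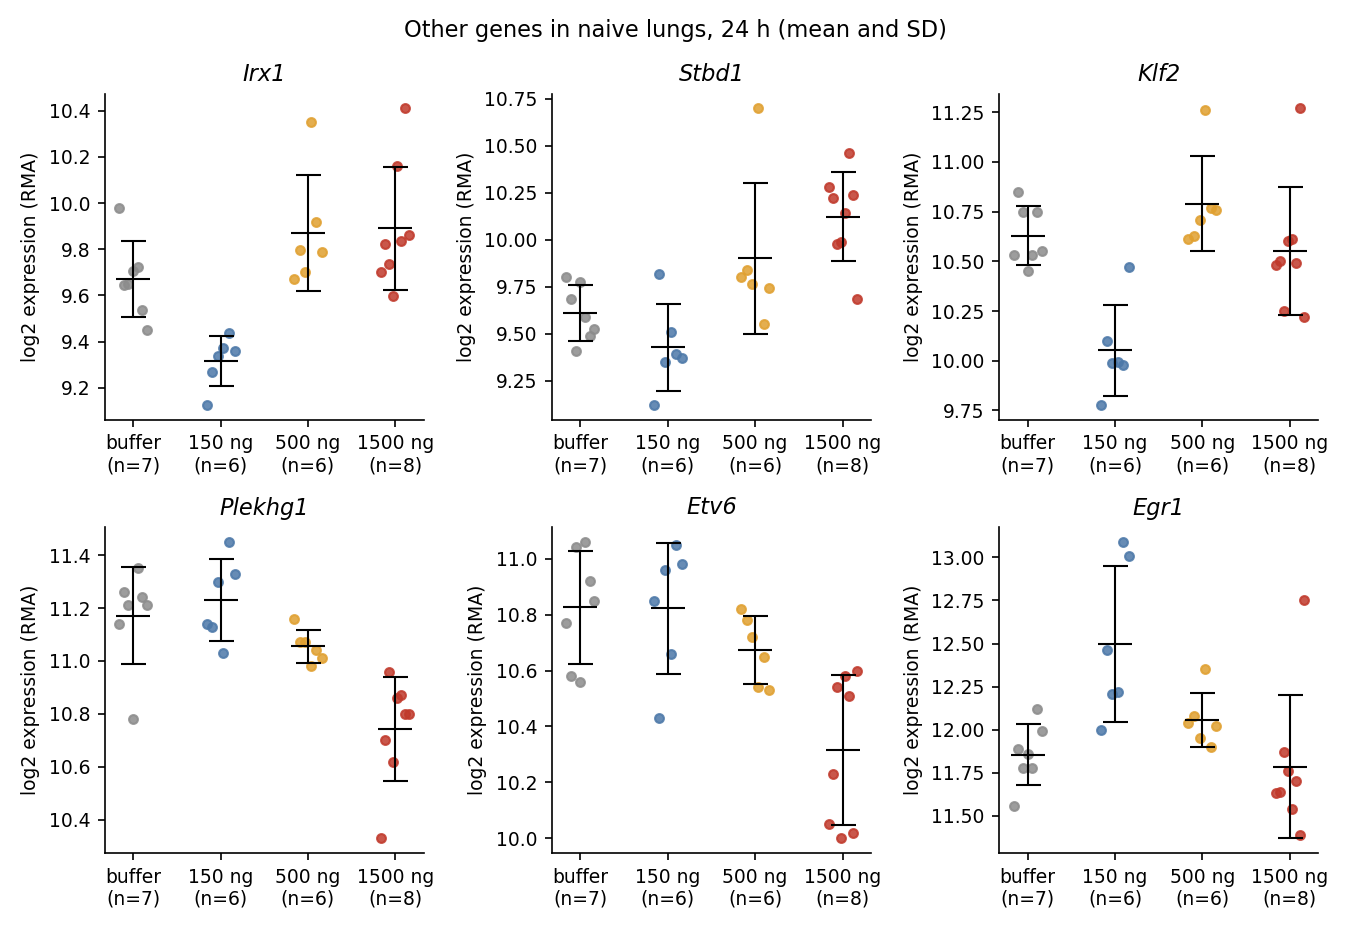
Each panel gives the log2 expression of 1 gene in every naive lung at 24 h, with buffer and the TSLP doses in rising order on the x axis, each array as a point and the mean with its SD as black bars. Irx1 and Plekhg1 show no overlap between 1500 and 150 ng, and for Irx1, Klf2 and Egr1 the 150 ng mean lies farther from buffer than the 1500 ng mean does.

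Over all 71 genes the position of the buffer group was recorded. The buffer mean lay between the means of the 2 doses in 62 of the 71 genes (87.3%), and in 37.1% of all genes. Choosing genes for a difference between the doses favours such an order, so nothing is read from the share. The 1500 ng mean was farther from buffer than the 150 ng mean in 30 of the 71 genes, and in 7146 of the 13494. Against buffer, 132 of 13494 genes passed at 1500 ng (0.978%) and 29 at 150 ng (0.215%), and of the 71 genes 13 passed at 1500 ng and 4 at 150 ng. One of the buffer arrays, replicate 8, carried squamous gullet genes at high level, and the count of 62 was the same without it.

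The arrays at 500 ng were set beside both doses. The 500 ng mean lay between the other means in 66 of the 71 genes (93%), compared with 40.4% of all genes, again an order favoured by the choice of genes. The median position was 0.402 of the way from the 150 ng to the 1500 ng mean. Mcpt8 averaged 7.82 at 150 ng, 8.46 at 500 ng and 8.83 at 1500 ng, and Ms4a2 averaged 6.98, 7.49 and 7.73 at the same doses. Cyp11a1 averaged 6.96, 7.50 and 7.66, and in each of these genes neither step alone passed the test. Klf2 was highest at 500 ng (10.05, 10.79 and 10.55 at 150, 500 and 1500 ng), and Cwc25 at 500 ng was level with 150 ng (8.33, 8.36 and 7.76).

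Between 500 and 150 ng, 10 genes differed (0.0741%), 8 higher and 2 lower at 500 ng. They included Klf2 (0.74, adjusted p = 0.00214), Irx1 (0.56, adjusted p = 0.00895) and the acute phase protein Saa3 (1.43, adjusted p = 0.029), and on the lower side Rgs2, which limits G-protein signals (−0.47, adjusted p = 0.000337), and the zinc-finger gene Zfp39 (−0.44, adjusted p = 0.029). Rgs2 averaged 12.65, 12.18 and 12.48 at 150, 500 and 1500 ng, and 12.07 in buffer. Between 1500 and 150 ng the probe set used for Rgs2 differed by −0.17 and dimmer ones by −0.42 and −0.23. With every probe set tested on its own in limma, the one at −0.42 passed (adjusted p = 0.0459). Without replicate 6 at 500 ng 1 gene passed. Markers of other tissue were lower at 500 ng without passing: all 7 fat genes and all 14 heart and skeletal muscle genes measured had negative differences from 150 ng, with medians of −0.69 and −0.41 beside −0.000516 over all genes. Averaged over the list, the fat genes lay between 8.71 and 9.91 at 500 ng, against 8.90 and 10.91 at 150 ng, and the heart and muscle genes between 9.35 and 10.50, against 9.84 and 10.95. The part of such tissue in the 500 ng comparisons was not tested.

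Between 1500 and 500 ng, 6 genes differed (0.0445%), 4 higher and 2 lower at 1500 ng. The 2 lower genes were Cwc25 (−0.60, adjusted p = 0.0179) and Fastkd3, a factor of mitochondrial RNA (−0.26, adjusted p = 0.0179). Among the higher ones were Adck1 (0.23), the scaffold Caskin2 (0.35) and the hyaluronidase Hyal2 (0.35, adjusted p = 0.0355), Adck1 and Caskin2 at an adjusted p of 0.0179. The fat genes and the heart and skeletal muscle genes were higher at 1500 than at 500 ng in 7 of 7 and 13 of 14 cases (medians 0.83 and 0.52), and none passed. Averaged over the list, they lay between 9.29 and 10.88 and between 9.94 and 11.01 at 1500 ng. The 3 dose comparisons share arrays, and single arrays moved the last count between 0 and 88.

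The lists of other pathways and cell types held no gene that passed between 1500 and 150 ng apart from those above. None of the 12 measured genes of the TSLP receptor and STAT5 pathway passed, and their median was −0.02. The receptor chains Crlf2 and Il7r differed by 0.00 and −0.15. Bcl2l1, the survival protein BCL-xL, differed by 0.25 and the feedback inhibitors Socs3 and Cish by 0.34 and 0.22 (adjusted p = 0.0578, 0.209 and 0.497).

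The chemokines of dendritic cells were higher on average without passing. Ccl17 had 9.61, 10.31 and 11.08 at 1500 ng, against 8.83, 9.61 and 9.94 at 150 ng, and Ccl22 had 8.25, 8.68 and 9.54, against 7.23, 7.94 and 8.29. The ranges overlapped in both. The differences were 0.84 and 0.88, with adjusted p-values of 0.203 and 0.168. At 500 ng the means, 10.42 and 8.72, were close to those at 1500 ng, 10.34 and 8.71.

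The type 2 cytokines Il4, Il5 and Il13 differed by 0.14, 0.05 and 0.06, and the eosinophil chemokines Ccl11 and Ccl24 by −0.004 and 0.08. Of the other members of the type 2 panel, Muc5ac differed by 0.35, the eosinophil granule protein gene Prg2 by 0.12, the chitinase-like Chil3 by −0.02, the neutrophil gene S100a8 by −0.07, Il33 by −0.01 and Tslp itself by 0.06. None of the 15 panel members passed, and their median was 0.06.

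All 15 measured goblet cell and mucus genes had positive differences, with a median of 0.28, and none passed. Of all 13494 genes 7713 had positive differences. Other lists were similarly one-sided without a gene that passed. Positive differences were seen in 8 of 8 cell division genes, 9 of 9 squamous gullet genes and 9 of 10 ciliated cell markers. The largest was that of Clca1, a secreted protein of mucous cells, which had 5.46, 8.00 and 11.21 at 1500 ng, against 6.10, 7.21 and 7.77 at 150 ng. The 1500 ng arrays thus lay both below and above the whole range at 150 ng, and the difference of 1.26 (SE 0.673) had an adjusted p of 0.354. Against the shared buffer arrays 1 of the 15 goblet cell and mucus genes passed at 1500 ng and none at 150 ng, beside 0.978% and 0.215% of all genes. The largest difference from buffer in that list was 3.29 at 1500 ng and 2.03 at 150 ng. Cyp26b1, which breaks down retinoic acid, had 7.12, 8.34 and 10.52 at 1500 ng, against 6.79, 6.95 and 8.40 at 150 ng, a difference of 1.32 (SE 0.402, adjusted p = 0.0912).

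All 11 measured markers of B and plasma cells had negative differences, with a median of −0.25, and none passed (7713 of all 13494 genes had positive ones). The smallest p in that list was that of the plasma cell regulator Prdm1 (−0.30, adjusted p = 0.13). Of the 12 T cell markers 1 had a positive difference and none passed, with a median of −0.11. Averaged over the B and plasma cell list the arrays lay between 10.24 and 10.70 at 1500 ng, against 10.55 and 10.93 at 150 ng. In buffer they lay between 10.03 and 10.61. The median difference of this list from the shared buffer arrays was 0.24 at 1500 ng and 0.45 at 150 ng. For the T cell markers it was 0.10 and 0.30, beside 0.03 and 0.004 over all genes, and no gene of either list passed against buffer. Cebpd, a transcription factor of the acute phase that glucocorticoids induce, differed by 0.47 (adjusted p = 0.0753), and none of the 13 glucocorticoid responsive genes measured passed.

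**Figure D4:**
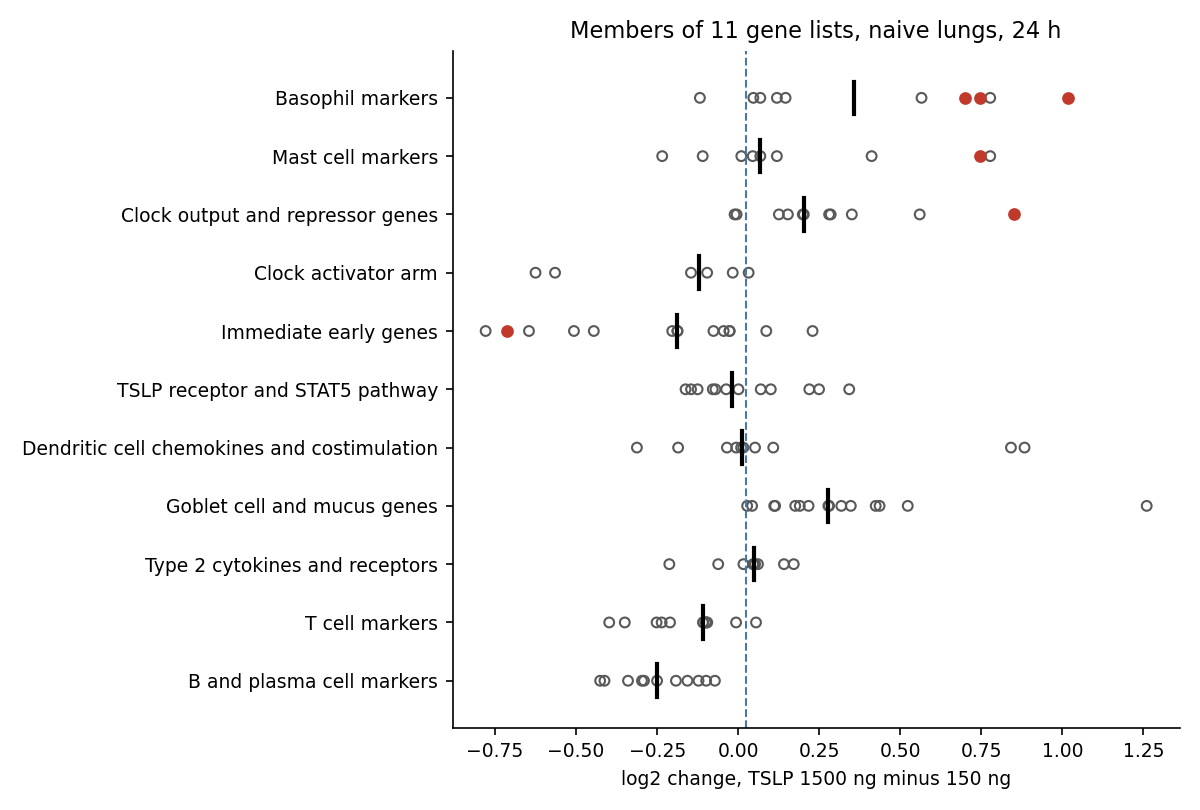
Each circle is a gene of 1 of 11 lists, placed by its log2 change of 1500 ng minus 150 ng, filled red where it passed an adjusted p of 0.05. Black bars mark list medians and the dashed line the median of all genes, 0.02, and the basophil list holds 3 of the red circles.

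The same contrast of doses was read in arrays that share none with the naive 24 h groups. In OVA-sensitized lungs at 24 h, 2096 of 13494 genes differed between 1500 and 150 ng (15.5%), and of the 71 genes 66 had the same sign (93%), compared with 67.9% of all genes. There 37 of the 71 passed with the same sign (52.1%), compared with 13.7% of all genes. Etfbkmt changed by 0.39 (adjusted p = 0.000288), Vav3 by −0.46 (adjusted p = 0.000427), Cwc25 by −0.69 (adjusted p = 3.1e-05) and Per1 by 0.59 (adjusted p = 0.0435). Rapgef3 changed by 0.50 (adjusted p = 3.64e-06), Samd9l by −0.27 (adjusted p = 4.28e-05) and Prickle1 by −0.33 (adjusted p = 0.000814). Irx1 differed by 0.23, Kcnk6 by 0.14 and Lars2 by 0.08 and did not pass (adjusted p = 0.106, 0.212 and 0.431). Of the 5 genes with the opposite sign, Klf2 differed by −0.16 and Gas5 by 0.16 (adjusted p = 0.411 and 0.222), and Sik3, Sertad1 and Pinx1 by 0.08, −0.05 and −0.01, and none of the 5 passed. Mcpt8, Ms4a2 and Cyp11a1 differed by 0.43, 0.45 and 0.32 in OVA-sensitized lungs and did not pass (adjusted p = 0.171, 0.0864 and 0.199). Whether the 1500 minus 150 ng difference itself differed between naive and OVA-sensitized lungs was tested in limma. No gene passed (0%), with 1208 at an unadjusted p under 0.05 (8.95%). With array weights 318 genes passed. In OVA-sensitized lungs the clock score was also higher at 1500 ng, with a mean of −0.05, against −1.09 at 150 ng. The beta-actin 3' minus 5' difference averaged 1.6 at 1500 ng and 1.39 at 150 ng there, beside 1.57 and 1.35 in naive lungs at 24 h. The part of the clock score and of beta-actin in these genes was not tested in OVA-sensitized lungs.

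In naive lungs at 6 h, 40 genes differed between 1500 and 150 ng (0.296%). Of the 71 genes 50 had the same sign at 6 h (70.4%), compared with 60.9% of all genes. At 6 h 2 of the 71 passed with the same sign, beside 25 of all 13494 genes. The 2 were Mcpt8 (1.11, adjusted p = 0.0065) and Cyp11a1 (0.66, adjusted p = 0.0482). Ms4a2 differed by 0.60 at 6 h (adjusted p = 0.107). Irx1, Plekhg1 and Etv6 differed by −0.03, −0.01 and −0.02 at 6 h. The test of whether the dose difference differed between times did not pass for Irx1 (adjusted p = 0.059) or Plekhg1 (adjusted p = 0.118).

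The difference between doses itself differed between 24 h and 6 h for 8 genes (0.0593%), 4 in each direction. Elp4 changed by 0.43 at 24 h and differed by −0.23 at 6 h, a gap of 0.66 (adjusted p = 0.00356). Nav1 changed by −0.31 at 24 h and differed by 0.21 at 6 h, a gap of −0.52 (adjusted p = 0.00356). The kinase Sik3 changed by −0.20 at 24 h and differed by 0.11 at 6 h (adjusted p of the gap 0.0195). Dimmer probe sets of Sik3 differed by 0.06, −0.04 and 0.06 between the doses at 24 h. For Pfdn2, a subunit of the prefoldin chaperone, the gap of 0.60 (adjusted p = 0.00499) came with a fall of −0.40 at 6 h (adjusted p = 0.0065) and a difference of 0.20 at 24 h that did not pass.

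**Figure D5:**
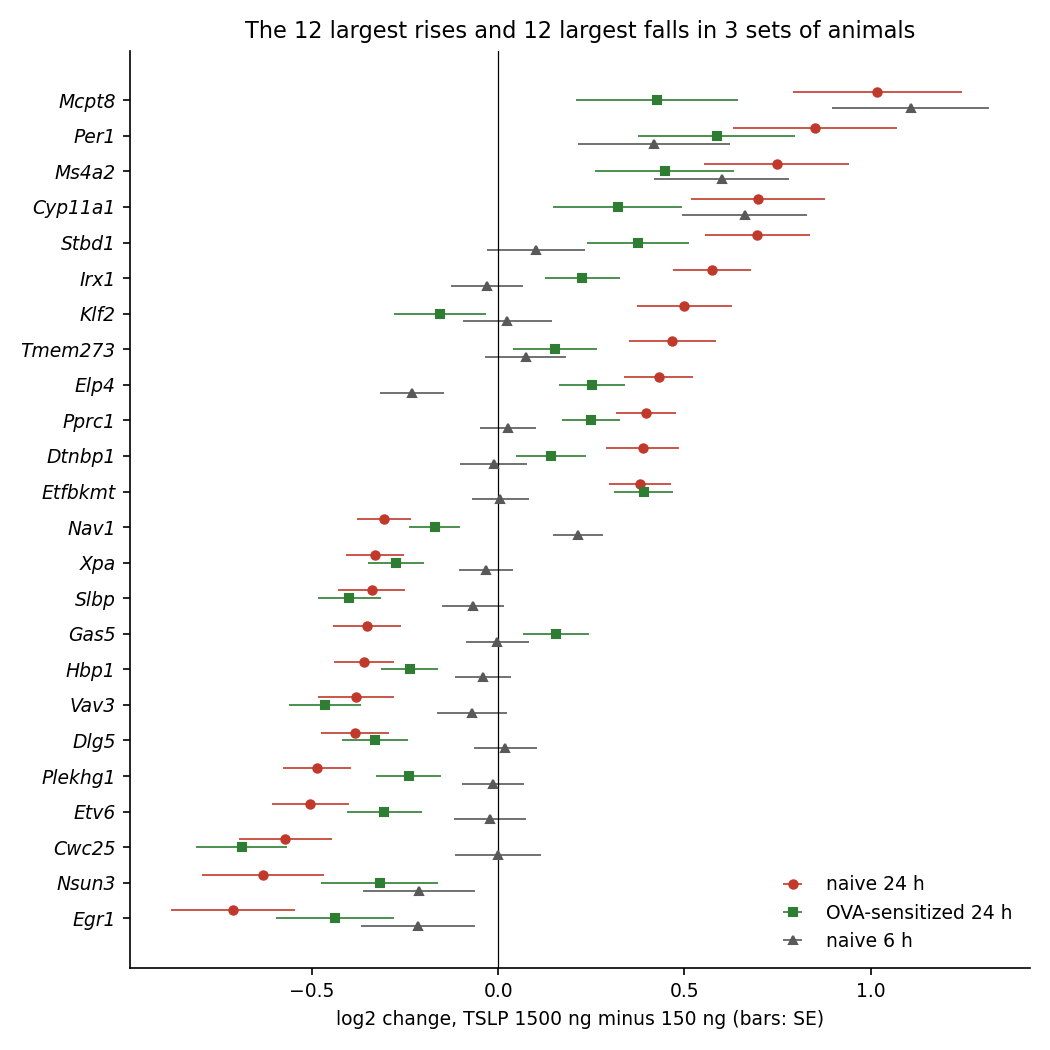
Log2 changes of TSLP 1500 ng minus 150 ng with their SE for the 12 largest rises and the 12 largest falls of genes with established names at naive 24 h (red circles), beside the same genes in OVA-sensitized lungs at 24 h (green squares) and naive lungs at 6 h (grey triangles). Mcpt8, Ms4a2 and Cyp11a1 lie to the right of 0 in each set, while most of the falls lie near 0 at 6 h.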

How the data were processed

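Lung RNA (100 ng per animal, RNA integrity numbers above 6, per the labels' protocols) was hybridised to 3' Affymetrix arrays. The values are log2 levels deposited by the authors, normalised by RMA per the submitters' processing notes; the sources used here name no software version. They hold 26166 probe sets, of which 22892 name 1 gene, 260 name several and 3014 none here. The brightest probe set of each gene was kept, giving 13494 genes (22834 of the single-gene probe sets matched a RefSeq gene). Of the 71 called genes 31 had 55 further probe sets, 44 with the same sign and 11 with the opposite one. At an unadjusted p of 0.05 in limma, 20 of those 44 passed and none of those 11.

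Means of 20 groups were fitted to all arrays of the series with limma 3.58.1 (R 4.3.3; lmFit and eBayes, two-sided, residual degrees of freedom 129), with Benjamini-Hochberg adjustment over all genes at 0.05. On simulated data for the comparison of 1500 with 150 ng (13494 genes), 38% of changes of 0.25, 86% of 0.5 and 98% of 1 on the log2 scale were recovered. Of the unchanged genes 11 were called (0.0827%). The simulated noise was independent between genes and had the same spread in every group. Arrays that deviate as a whole were not part of it, so the shares recovered do not cover them. The number of arrays limits the precision. Animals sharing a number across doses did not deviate together (correlations between −0.23 and 0.33 over 6 pairs), so no pairing was used.

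The groups, gene lists and tests were chosen with earlier results of these data known. Named are the 12 largest rises and 12 largest falls among the genes that passed, skipping predicted or clone names such as Gm or Rik, up to 4 members of each list described by smallest p, the type 2 panel, and the 3 smallest p in each direction of the other comparisons; further list members were named after their values were seen. Other probe set summaries, filters, normalizations, weights, sets of arrays, covariates and each array left out were tried as alternatives.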

Additional observations from a re-analysis of the deposited data

Results flagged for a closer look

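For 59 genes of the text and the beta-actin difference, each in the 1500, 500 and 150 ng groups at naive 24 h, 180 groups of arrays were examined for an array far from the others by Dixon's test, and 17 (9.44%) had one. Chance marks about 1 in 20 groups. At 1500 ng, replicate 8 was far above the others for Egr1 (12.75) and Fos (10.99), replicate 7 for Klf2 (11.27) and replicate 1 for Socs3 (11.37). At 500 ng, 7 of these cases were all replicate 6, which was the highest array for Stbd1 (10.70), Irx1 (10.35), Klf2 (11.26) and Prkca (10.30) and the lowest for Cwc25 (8.04), Ing4 (8.01) and Cr2 (8.15). At 150 ng, replicate 5 was the highest for Per1 (9.76) and Usp2 (11.27), replicate 7 for Gas5 (10.45), replicate 8 for Egr3 (8.94) and replicate 2 for Cyp26b1 (8.40), and replicate 8 was the lowest for Hyal2 (11.24).

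The 1500 minus 150 ng difference at naive 24 h differed from that at naive 6 h for 8 genes by limma. The gap was positive for Elp4 (0.66), Pfdn2 (0.60), the kinase Prkca (0.43) and Alkbh7 (0.38), and negative for Nav1 (−0.52), the growth regulator Ing4 (−0.45), Numb (−0.38) and Sik3 (−0.31). Of these, Elp4, Nav1 and Sik3 passed between doses at 24 h.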

How the results depend on the processing

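The 71 calls between 1500 and 150 ng became 446 with array weights, 242 with the naive 24 h groups alone, 42 with beta-actin, 35 with the clock score and 32 with both as covariates, and 25 with the compared groups alone. In the same order, 71, 62, 35, 33, 26 and 13 of these calls were among the 71. Leaving out 1 array gave 16 to 168. Every array at 150 ng other than replicate 5, and replicates 1, 2, 3, 4, 5 and 7 at 1500 ng, moved the count by over 1.5 times (16, 40, 168, 24, 150 and 28 without these 6, and 33, 36, 30, 26 and 19 without replicates 1, 2, 4, 7 and 8 at 150 ng). Quantile normalization gave 50 higher and 27 lower genes, and 39 higher and 32 lower were reported. No call reversed, 8 of 71 genes passed under every alternative and 8 without any single array, and 4 (Irx1, Plekhg1, Foxp1 and Stbd1) did both. The causes of these moves were not tested.

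The 10 calls between 500 and 150 ng became 18 with every probe set on its own, 191 with weights, 16 with the naive 24 h groups alone, 18 with both covariates and 1 to 18 without 1 array. The 6 calls between 1500 and 500 ng became 12 with the mean of probe sets, 23 with every probe set, 12 without the dimmest 40% of genes, 11 with quantile normalization, 243 with weights, 2 with the groups alone, 50 with the naive 24 h groups alone, 2, 1 and 2 with beta-actin, the clock score and both, and 0 to 88 without 1 array. For the dose difference in naive against that in OVA-sensitized lungs, the 0 calls became 318 with weights, 5 with beta-actin and 10 with both covariates. They stayed at 0 without any 1 array. For the dose difference at 24 h against that at 6 h, the 8 calls became 5 with every probe set and 212 with weights. They became 20 with the clock score, 17 with both covariates and 3 to 11 without 1 array. The beta-actin difference ran from 0.109 to 0.261 without 1 array and passed in none.

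Animal numbers did not pair the arrays (2 of 6 pairs correlated best with their own number). As a replicate block they gave 65 calls between 1500 and 150 ng, 3 between 500 and 150 ng and 4 between 1500 and 500 ng. For the dose difference against that in OVA-sensitized lungs and that at 6 h they gave 0 and 7.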
